A study of Mus musculus with 12 samples.

Results

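Haptoglobin (Hp), orosomucoid 1 (Orm1), lipocalin 2 (Lcn2), serum amyloid A3 (Saa3), the formyl peptide receptor genes Fpr1 and Fpr2 and the steroid enzyme gene Hsd11b1 were followed across the RNA libraries of mouse peritoneal macrophages. These 7 of the 53465 genes in the deposited table were picked by symbol, with their low RNA in the controls labelled Lyz2Cre-BHLHE40-Fl already known from the same libraries. Their differences between the control groups, and every LPS difference, which uses those controls, are therefore given as a description without a test. The difference between genotype labels in the 6 libraries with LPS was tested. This assumes that it did not help to choose the genes, which is not recorded. If it did, its p-values are a description too. Even if it did not, a label difference present with and without LPS would carry over from the controls. The counts and ranks of the 7 genes with LPS are therefore a description. All 7 genes were detected and all 7 passed the filter on low values.

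The libraries fall into 4 groups of 3, namely Lyz2Cre-BHLHE40-Fl with LPS, Lyz2Cre-BHLHE40-Fl control, Lyz2Cre with LPS and Lyz2Cre control. All came from C57BL/6 mice at postnatal week 10, and both genotype labels carry Lyz2Cre, Cre recombinase placed in the lysozyme 2 locus and so made in macrophages, neutrophils and other myeloid cells. The BHLHE40-Fl label adds a floxed allele of Bhlhe40, a basic helix-loop-helix transcription factor gene, and the labels do not tell whether it is on 1 or both chromosomes. Lipopolysaccharide (LPS) comes from the cell envelope of Gram-negative bacteria and acts through TLR4; neither the dose nor the length of exposure is stated in what was used here. The labels do not say that the replicates are separate animals or cultures, so a p-value here weighs only the spread among libraries, which may be technical.

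The acute phase is the systemic response to injury and infection in which the liver, driven mainly by IL-6 and IL-1, secretes large amounts of a set of plasma proteins, and several of their genes are also active in macrophages. Haptoglobin binds free haemoglobin, orosomucoid is a lipocalin that carries small lipophilic molecules, lipocalin 2 withholds iron from bacteria by binding their siderophores, and Saa3 is the serum amyloid A of mice that is made mainly outside the liver. The formyl peptide receptors are G protein-coupled receptors of phagocytes. Fpr1 senses N-formylated bacterial and mitochondrial peptides with high affinity, and Fpr2 takes a wider range of ligands that includes serum amyloid A and the annexin A1 protein. Hsd11b1 encodes the enzyme that regenerates active glucocorticoid inside cells.

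In mm10 coordinates Hp lies on the minus strand at chr8:109575128-109579172, Orm1 on the plus strand at chr4:63344560-63348163 and Lcn2 on the minus strand at chr2:32384633-32388252. Saa3 lies on the minus strand at chr7:46711998-46715700. Hsd11b1 lies on the minus strand at chr1:193221634-193264075 and overlaps Gm38118 on its own strand and Lamb3 and 4930570N18Rik on the other. Fpr1 on the minus strand at chr17:17876471-17883940 and Fpr2 on the plus strand at chr17:17887824-17893952 are neighbours that point away from each other, with starts 3884 bases apart. Fpr2 overlaps Fpr3 on its own strand. All 7 are annotated as protein coding.

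The upstream flanks of Saa3, the most abundant of the genes, and of the neighbours Fpr1 and Fpr2 are printed, Saa3 for its level and the receptor genes because their LPS values were above their control values under both labels. They come from the RefSeq promoter table (build GRCm38.p6), read 5′ to 3′ on the gene's strand and end before the annotated gene, and capitals mark matches to the patterns named after them.
Saa3 (chr7:46715701-46715926, minus strand): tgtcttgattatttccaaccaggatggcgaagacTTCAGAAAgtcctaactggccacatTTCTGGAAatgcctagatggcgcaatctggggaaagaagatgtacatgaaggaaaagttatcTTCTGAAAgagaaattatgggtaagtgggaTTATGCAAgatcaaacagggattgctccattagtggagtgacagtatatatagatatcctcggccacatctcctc
Fpr1 (chr17:17883941-17884189, minus strand): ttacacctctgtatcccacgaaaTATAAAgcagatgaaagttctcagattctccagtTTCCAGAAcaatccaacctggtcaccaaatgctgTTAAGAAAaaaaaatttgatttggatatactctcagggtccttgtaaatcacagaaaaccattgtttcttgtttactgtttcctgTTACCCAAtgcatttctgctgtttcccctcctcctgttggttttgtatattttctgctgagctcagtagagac
Fpr2 (chr17:17887574-17887823, plus strand): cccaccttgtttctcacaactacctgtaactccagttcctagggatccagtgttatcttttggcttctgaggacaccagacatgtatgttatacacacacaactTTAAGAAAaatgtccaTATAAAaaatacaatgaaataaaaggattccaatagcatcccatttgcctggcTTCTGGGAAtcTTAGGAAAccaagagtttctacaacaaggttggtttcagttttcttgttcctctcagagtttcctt

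The letters of 5 patterns were searched on both strands in the 250 bases before the RefSeq start, in the 5 of 7 genes with an entry in that table. The windows of Lcn2 (chr2:32387740-32387989) and Hsd11b1 (chr1:193242361-193242610) lie inside the gene spans given above. The patterns were TTNNGNAA for C/EBP factors, TTCNNNGAA for STAT factors, GGANNTTCC for NF-kB, CACGTG (an E-box, the kind of site BHLHE40 binds) and TATAAA. None of these matches overlapped another. The C/EBP pattern was found 4 times before Saa3, 3 times before Fpr1, 2 times each before Fpr2 and Hsd11b1, and once before Lcn2. At least 1 such match was present in 36.8% of all 32851 promoters of the table, so such a match is common. Fpr2 also held the STAT pattern, found in 7.02% of all promoters. Fpr1 and Fpr2 held TATAAA, found in 12.4%, more than 100 bases before their starts. No window of the 5 held CACGTG or GGANNTTCC, found in 6.02% and 3.59% of all promoters, which says only that these letters are not in these windows. Hp and Orm1 were not searched.

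Each library held 20489417 to 29354869 reads in genes, and 1 read was worth 0.725 to 1.56 of the normalised read counts used below. Those values are relative to the deposited scaling. Scaled to equal totals instead, the median log2 difference of all genes was 0.22 (against -0.02 as deposited) between genotype labels with LPS, 0.17 (against 0.00) between them in controls, -0.56 (against -0.05) for LPS in BHLHE40-Fl-labelled libraries and -0.57 (against 0.00) for LPS in Lyz2Cre libraries. Bhlhe40 RNA did not check the label. It stood at 2232 ± 244 in BHLHE40-Fl-labelled libraries with LPS and 2467 ± 226 in Lyz2Cre libraries with LPS (SD, n = 3 libraries, limma adjusted p = 0.201), a log2 difference of -0.15 that turned to 0.14 with equal library totals and 0.00 after quantile normalization. In controls it was higher, at 7893 ± 239 in BHLHE40-Fl-labelled and 4976 ± 295 in Lyz2Cre libraries (SD, n = 3, limma adjusted p = 6.32e-06). A gene-wide value need not show a loss of some exons, which was not tested. Every direction between genotypes below therefore rests on the label alone, which is why the groups are named by it.

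The macrophage label was met by its defining markers in all 12 libraries, with Cd68 between 38919.2 and 49283.9, Csf1r between 5713.5 and 20148.8 and Adgre1 between 5369.7 and 39564.7. The markers nevertheless moved with the genotype label. Of 9 macrophage markers tested, 8 fell below the Lyz2Cre level with LPS and 8 in the controls (limma adjusted p below 0.05). For this and the other marker lists, 17.7% of all tested genes were called higher and 19.8% lower with LPS. In controls these shares were 15.0% and 16.6%. Adgre1, which encodes F4/80, stood at 12480 ± 1210 in BHLHE40-Fl-labelled libraries with LPS against 38486 ± 1280 in Lyz2Cre libraries with LPS, and at 5635 ± 245 against 30456 ± 725 in the control libraries (SD, n = 3). Cd68 moved little, at 41444 ± 2370 against 47261 ± 1620 with LPS and 44204 ± 4260 against 45308 ± 3490 in controls. Lyz2, the gene of the Cre locus, stood at 769 ± 67.9 against 970 ± 56.2 with LPS (limma adjusted p = 0.0345). In controls Lyz2 stood at 170 ± 31.5 against 766 ± 69.8 (limma adjusted p = 1.2e-10). Mesothelial markers went the other way, with summed values of 1544 to 1901 in the 3 BHLHE40-Fl-labelled libraries with LPS, 2397 to 3166 in the BHLHE40-Fl-labelled controls, 9.4 to 34.8 in Lyz2Cre with LPS and 20.1 to 22.6 in Lyz2Cre controls. Upk3b, a defining one, was at 0 in all 6 Lyz2Cre libraries. Of 12 mesothelial markers tested, 11 were higher with LPS and 12 in controls. Of 12 markers of large peritoneal macrophages tested, 3 were higher and 5 lower with LPS, and 2 and 6 in controls. Gata6, a defining one, averaged 178.4 ± 21.9 in BHLHE40-Fl-labelled and 20.13 ± 0.603 in Lyz2Cre libraries with LPS (SD, n = 3). In controls Gata6 averaged 333.2 ± 39.9 and 24.67 ± 9.06. Prg4, another, was at 2.3 to 3.8 against 47.2 to 52.9 with LPS. In bulk RNA, fewer cells of a type and less RNA per cell cannot be told apart.

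Some defining markers of other cells known for these genes were at 0 and some were not. Ly6g, a defining neutrophil gene, was at 0 in all 12 libraries, and S100a9 was at 0 in all but a single library with 1.2. The summed level of 12 neutrophil markers was nonetheless 4239 to 4752 in BHLHE40-Fl-labelled libraries with LPS against 17566 to 17774 in Lyz2Cre libraries with LPS, and 1818 to 1930 against 24694 to 28844 in the controls. In Lyz2Cre libraries most of it was Mmp8, at 206 ± 7.68 in BHLHE40-Fl-labelled against 14408 ± 210 in Lyz2Cre libraries with LPS (SD, n = 3). In BHLHE40-Fl-labelled libraries most of it was Csf3r, at 4141 ± 304 against 2162 ± 29.7. Of 7 neutrophil markers tested, 1 was higher and 4 were lower with LPS, and 3 were higher and 4 lower in controls. S100a8, the third defining marker, ranged from 127.3 to 221.2 in BHLHE40-Fl-labelled libraries with LPS, 42.8 to 69.8 in BHLHE40-Fl-labelled controls, 846.2 to 1031.2 in Lyz2Cre with LPS and 369.6 to 705.1 in Lyz2Cre controls. Hepatocyte markers, from the main source of haptoglobin and orosomucoid in the body, summed to at most 4.2 in any library and Ttr was at 0 in all 12. The defining adipocyte gene Adipoq was at 0 in all 12 as well, but other genes of that list were not. The adipocyte list summed to 2292 to 2457 in BHLHE40-Fl-labelled libraries with LPS against 5685 to 6476 in Lyz2Cre libraries with LPS. In controls it summed to 9157 to 11210 against 10951 to 13007. Of its 2 tested genes, Fabp4 and Lipe, 2 were lower with LPS and 2 in controls. Of 8 monocyte markers tested, 6 were lower and 2 higher with LPS, and 5 were lower and 0 higher in controls. The defining Ly6c2 averaged 13.7 in BHLHE40-Fl-labelled libraries with LPS, 0.5 in BHLHE40-Fl-labelled controls, 1425 in Lyz2Cre with LPS and 1217 in Lyz2Cre controls. Vcan went the other way with LPS, at 17863.8 to 19054.5 in BHLHE40-Fl-labelled against 14323.3 to 15246.6 in Lyz2Cre libraries. Plac8 did too, at 118.1 to 186.6 against 20.8 to 52.4. Of 8 fibroblast markers tested, 6 were higher and 1 lower with LPS, and 6 were higher and 1 lower in controls. The part of the shift in macrophage, monocyte, neutrophil, adipocyte, mesothelial and fibroblast markers in the differences below was not tested.

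**Figure D1:**
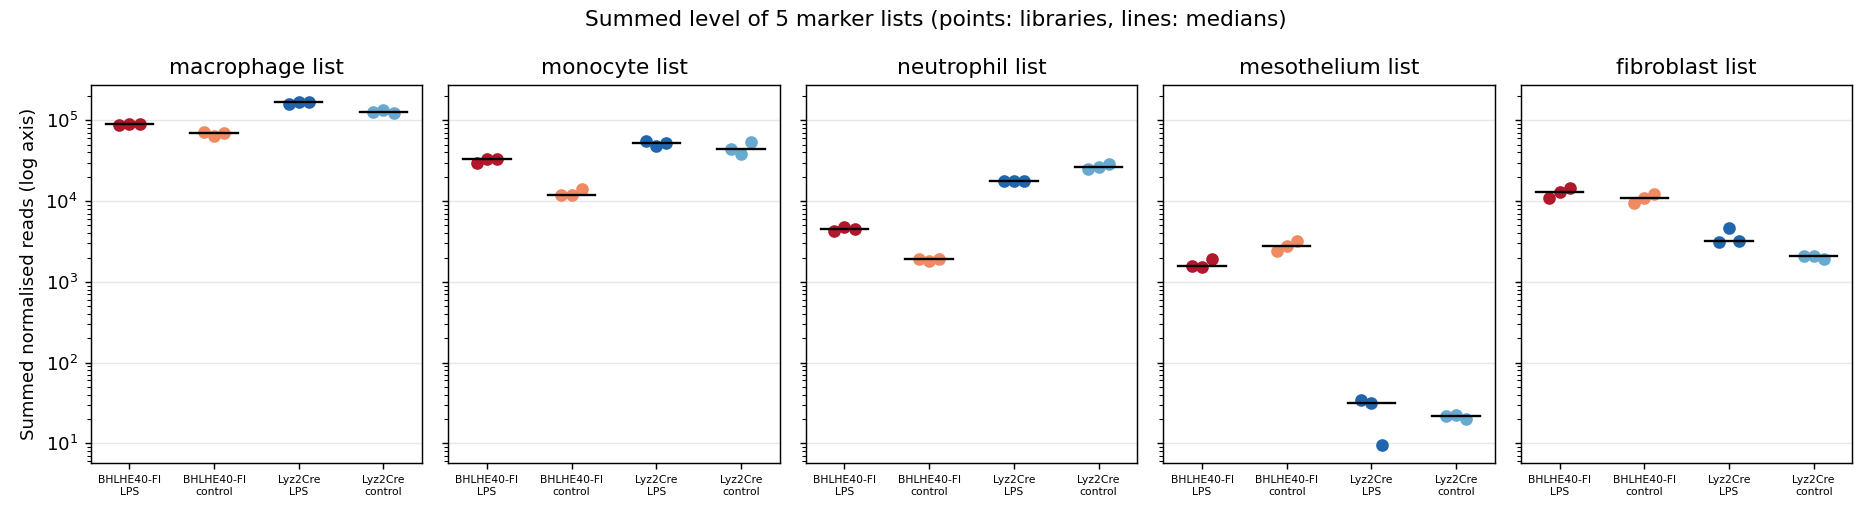
Summed normalised reads of the macrophage, monocyte, neutrophil, mesothelium and fibroblast marker lists in each library (log axis), with a point per library and a line at the median of 3. Macrophage sums were 87567 to 91413 in BHLHE40-Fl-labelled libraries with LPS and 160823 to 168303 in Lyz2Cre libraries with LPS, while the mesothelium and fibroblast sums were higher in the BHLHE40-Fl-labelled groups.

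With LPS, RNA of all 7 genes was far lower in the libraries labelled Lyz2Cre-BHLHE40-Fl, by 14.7-fold for Fpr2 up to 361-fold for Hsd11b1. This held for the secreted proteins Hp, Orm1, Lcn2 and Saa3, for both receptors and for the steroid enzyme. All 7 were called lower (limma on all 20419 tested genes, adjusted p below 0.05), where 19.8% of all tested genes were called lower and 17.7% higher. Their 3 libraries against 3 did not overlap in 7 of 7, where 24.6% of tested genes had BHLHE40-Fl-labelled values below all Lyz2Cre values. The genes were picked as low under this label in the controls, so both counts beside these shares are a description. With equal library totals, 2240 genes were called lower and 6200 higher, against 4033 and 3610 as deposited, and the 7 genes had log2 differences from -7.14 to -3.58.

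Among the secreted proteins, Hp stood at 127.6, 190.1 and 139.0 in the 3 BHLHE40-Fl-labelled libraries with LPS, against 11676.2, 10063.6 and 10852.8 in the Lyz2Cre libraries with LPS. Every BHLHE40-Fl-labelled library was at a small fraction of the lowest Lyz2Cre library. The means, 152 ± 33.3 and 10864 ± 806 (SD, n = 3), lie 71.4-fold apart, or -6.17 ± 0.12 on the log2 scale (SE, limma adjusted p = 6.61e-16).

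Orm1 stood at 7.0, 10.7 and 6.3 in the BHLHE40-Fl-labelled libraries with LPS, against 1031.0, 1147.6 and 1133.8 in Lyz2Cre libraries with LPS. The low group rests on 18 reads in all. The difference was 138-fold, or -6.97 ± 0.27 on the log2 scale (SE, limma adjusted p = 1.87e-12). Of its transcript windows of 50 bases, 20.4% also occur in Orm2 or Orm3, so reads from those stretches could have been counted for either gene.

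Lcn2 stood at 250.4, 314.3 and 296.8 in the BHLHE40-Fl-labelled libraries with LPS, against 7760.5, 8023.6 and 8686.3 in Lyz2Cre libraries with LPS. The groups stood well apart and each varied little. Lcn2 was 28.4-fold lower, or -4.83 ± 0.33 on the log2 scale (SE, limma adjusted p = 2.22e-09).

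Saa3 stood at 9627.1, 8922.3 and 8709.6 in the BHLHE40-Fl-labelled libraries with LPS, against 162088.7, 181074.2 and 187442.6 in Lyz2Cre libraries with LPS. It was 19.5-fold lower, or -4.28 ± 0.11 on the log2 scale (SE, limma adjusted p = 6.95e-15). Per kilobase of exon it held 3487 ± 184 normalised reads in BHLHE40-Fl-labelled and 67870 ± 5061 in Lyz2Cre libraries with LPS (SD, n = 3), the highest of the 7 in both. Reads of Saa3 were 86.7% to 89.1% of the reads of all 7 genes in the BHLHE40-Fl-labelled libraries with LPS and 81.6% to 83.2% in the Lyz2Cre libraries with LPS.

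The receptor gene Fpr1 stood at 87.8, 113.5 and 119.0 in the BHLHE40-Fl-labelled libraries with LPS, against 6115.3, 6543.5 and 6286.5 in Lyz2Cre libraries with LPS. It was 59.2-fold lower, or -5.88 ± 0.20 on the log2 scale (SE, limma adjusted p = 3.15e-13). Its neighbour Fpr2 stood at 698.7, 740.6 and 680.0 against 9710.0, 10725.7 and 10602.4 in the same 2 groups. Fpr2 was 14.7-fold lower, or -3.87 ± 0.11 on the log2 scale (SE, limma adjusted p = 2.49e-14), and had the smallest difference of the 7. Per kilobase of exon, the BHLHE40-Fl-labelled libraries with LPS held 80.6 ± 12.6 normalised reads of Fpr1 and 545 ± 23.9 of Fpr2, and the Lyz2Cre libraries with LPS 4770 ± 163 of Fpr1 and 7983 ± 428 of Fpr2 (SD, n = 3). Fpr2 shares 31.5% of its windows of 50 bases with Fpr1, Fpr3 or the predicted gene Gm5966, whereas Fpr1 shares 1 of 1275.

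Hsd11b1 stood at 1.2, 1.5 and 0.0 in the BHLHE40-Fl-labelled libraries with LPS, against 275.1, 383.5 and 315.7 in Lyz2Cre libraries with LPS. The low group is 2 reads in 3 libraries, at the edge of detection at this depth. The ratio of the means was 361-fold, with a 95% counting interval from 99.9 to 2980 for the reads of the low group. On the log2 scale it was -7.51 ± 0.45 (SE, limma adjusted p = 4.4e-10), and such a fitted value depends on the added 1.

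Ranked among the 20419 tested genes from the most negative log2 difference with LPS, Hsd11b1 was 1st, Orm1 2nd, Hp 7th, Fpr1 11th, Lcn2 32nd, Saa3 51st and Fpr2 82nd. The place of Hsd11b1 rests on 2 reads and the added 1. With 5 added in place of 1 its log2 difference was -5.80, behind Orm1 (-6.43), Hp (-6.13) and Fpr1 (-5.83).

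**Figure D2:**
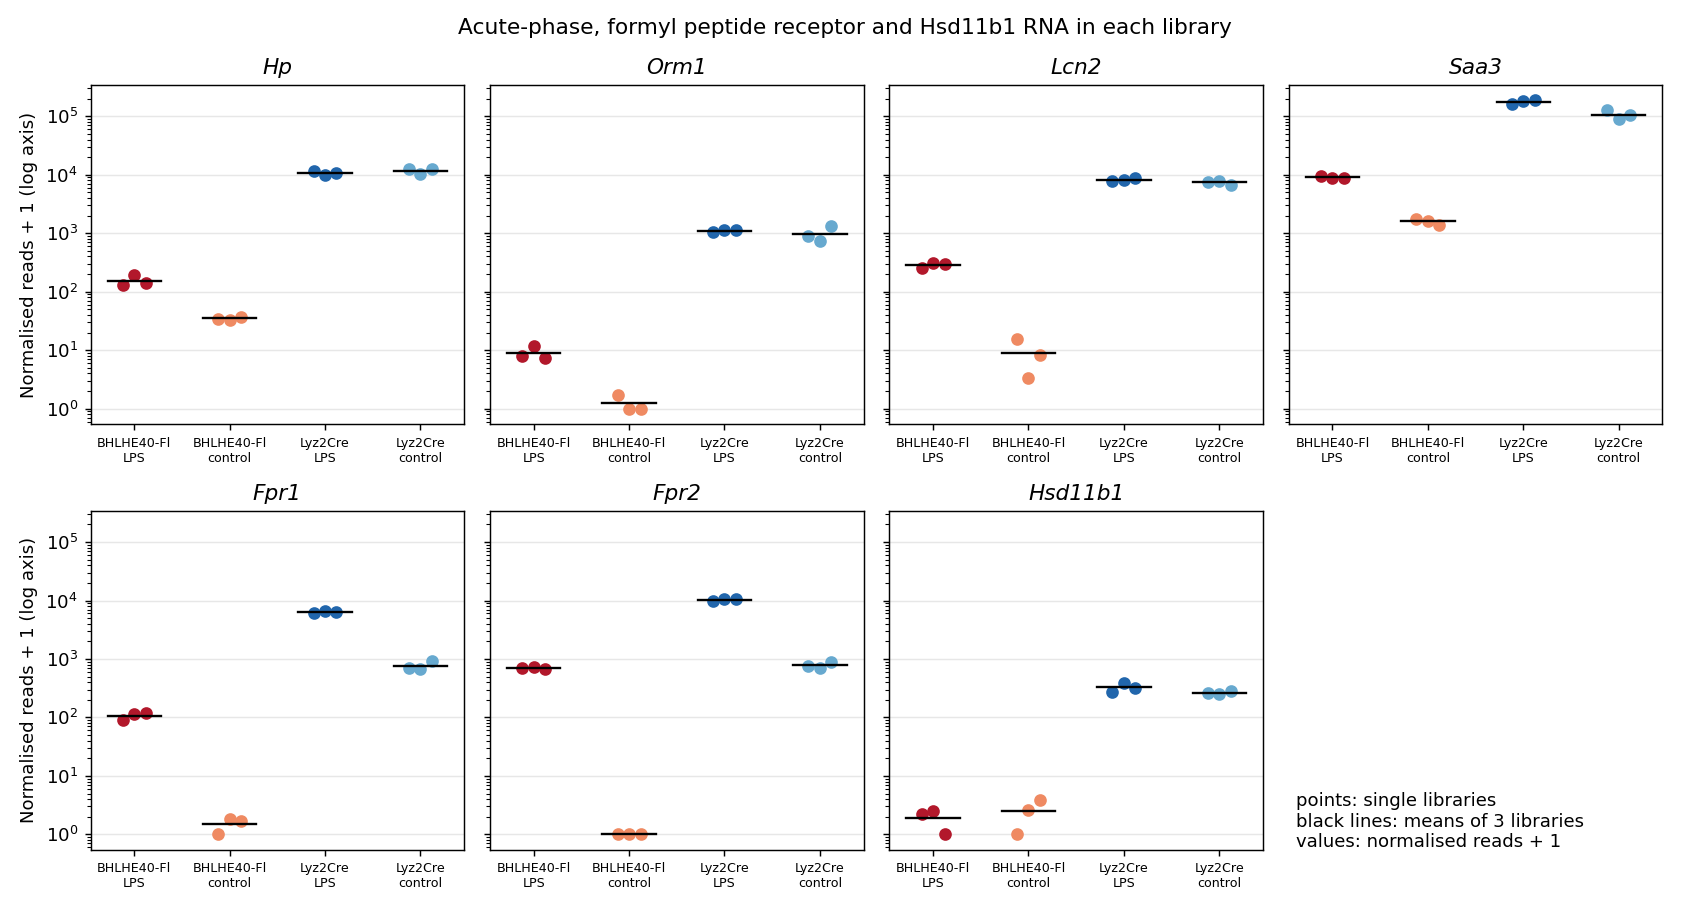
Normalised reads plus 1 of each gene in every library (log axis), with a point per library and a line at the mean of 3, for the groups BHLHE40-Fl-labelled with LPS, BHLHE40-Fl-labelled control, Lyz2Cre with LPS and Lyz2Cre control. In all 7 genes the BHLHE40-Fl-labelled points lie below the Lyz2Cre points of the same treatment, and in Fpr2 those with LPS (680.0 to 740.6) reach the Lyz2Cre controls (705.2 to 894.4).

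In the controls, whose values were taken to have chosen the genes, BHLHE40-Fl-labelled libraries were again below Lyz2Cre libraries in all 7 genes, and the ratios of means were larger than with LPS except for Hsd11b1. That exception rests on 2 reads with LPS and 6 reads in controls under the BHLHE40-Fl label. The counting interval of its LPS ratio, 99.9 to 2980, holds its control ratio of 177. The share of tested genes with no overlap in this direction was 20.9%, and nothing is read from it here. Hp stood at 33.4, 32.4 and 36.2 in the BHLHE40-Fl-labelled controls against 12331.0, 10231.3 and 12340.1 in the Lyz2Cre controls, a 342-fold difference of the means. Saa3 stood at 1752.8, 1634.2 and 1398.6 against 126877.4, 91004.1 and 103640.8, or 67.2-fold lower. This was the smallest gap of the 7 genes in controls.

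Other genes were close to the detection limit in the BHLHE40-Fl-labelled controls. Lcn2 stood at 14.5, 2.4 and 7.2 against 7639.7, 7940.5 and 6771.8 in Lyz2Cre controls, or 928-fold lower. Orm1 had a single read (0.7, 0.0 and 0.0) against 903.0, 727.9 and 1303.1, a ratio of 4191 with a 95% counting interval from 752 to 165553. Fpr1 had 2 reads (0.0, 0.8 and 0.7) against 692.1, 662.3 and 932.1, a ratio of 1524 with an interval from 422 to 12587. These intervals cover counting error only.

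No read of Fpr2 was present in the 3 BHLHE40-Fl-labelled controls, against 751.3, 705.2 and 894.4 in Lyz2Cre controls. With a floor of 3 reads over the group, it was at least 1049-fold lower. Hsd11b1 stood at 0.0, 1.6 and 2.9 against 264.8, 248.9 and 281.4, or 177-fold lower. The weight of all 7 genes in a library was 0.0336% ± 0.00146 of reads in BHLHE40-Fl-labelled libraries with LPS, 0.00816% ± 0.000829 in BHLHE40-Fl-labelled controls, 0.569% ± 0.0258 in Lyz2Cre libraries with LPS and 0.569% ± 0.0867 in Lyz2Cre controls (SD, n = 3).

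**Figure D3:**
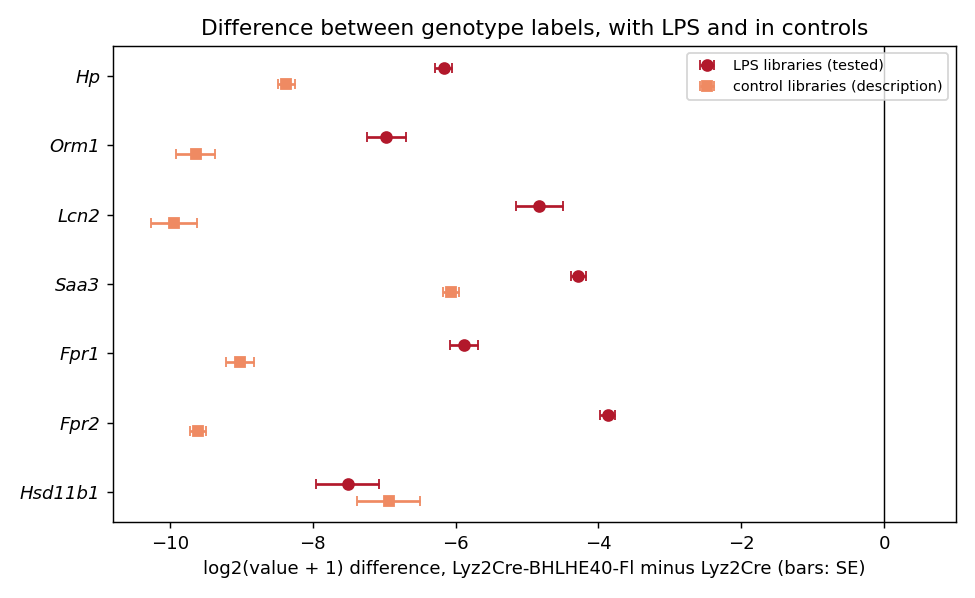
Log2(value + 1) difference between the labels, Lyz2Cre-BHLHE40-Fl minus Lyz2Cre, for each gene with its SE, in libraries with LPS (circles, tested) and in controls (squares, description). Values run from -7.51 (Hsd11b1) to -3.87 (Fpr2) with LPS and from -9.94 (Lcn2) to -6.06 (Saa3) in controls. Hsd11b1 is the gene whose difference is no smaller with LPS, which rests on 2 reads with LPS and 6 in controls under the BHLHE40-Fl label.

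RNA of both receptor genes was higher with LPS under either label. As a ratio to controls, that of the secreted proteins was higher mainly in BHLHE40-Fl-labelled libraries, where control values were low. Hsd11b1 overlapped between LPS and control libraries under both labels. These differences share the control libraries taken to have chosen the genes and were not tested. In BHLHE40-Fl-labelled libraries, 6 of the 7 genes had all LPS values above all control values, where 26.7% of tested genes did. Fpr2 was at least 946-fold higher with LPS, against 0 reads in the controls, and Fpr1 213-fold higher with a 95% counting interval from 59.1 to 1763. Lcn2 averaged 287 ± 33.0 with LPS and 8.03 ± 6.09 in controls (SD, n = 3), or 35.7-fold higher. Orm1 was 34.3-fold higher with an interval from 6.15 to 1354, Saa3 5.70-fold and Hp 4.48-fold. Hsd11b1 overlapped between LPS and control, with 2 reads with LPS and 6 reads in controls.

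In Lyz2Cre libraries, 3 of the 7 genes had all LPS values above all control values, where 27.5% of tested genes did. These were Fpr1, at 6315 ± 216 with LPS and 762 ± 148 in controls (8.29-fold higher), Fpr2, at 10346 ± 554 and 784 ± 98.7 (13.2-fold higher), and Saa3, at 176868 ± 13190 and 107174 ± 18200 (SD, n = 3, 1.65-fold higher). The Saa3 difference on the log2 scale was 0.73 as deposited, 0.01 with equal library totals, where the groups overlapped, and -0.38 after quantile normalization. Fpr1 and Fpr2 had log2 differences of 2.34 and 2.999 with equal totals.

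Hp, Orm1, Lcn2 and Hsd11b1 overlapped between LPS and control in Lyz2Cre libraries. Hp averaged 10864 ± 806 with LPS and 11634 ± 1215 in controls, Lcn2 8157 ± 477 and 7451 ± 607, Orm1 1104 ± 63.7 and 978 ± 295, and Hsd11b1 325 ± 54.8 and 265 ± 16.3 (SD, n = 3). Their log2 differences lay between -0.10 (Hp) and 0.28 (Hsd11b1) as deposited. With equal totals they lay between -0.82 (Hp) and -0.45 (Hsd11b1), and all LPS values of these 4 genes were then below the control values. For Orm1, Lcn2 and Hsd11b1 the sign of the LPS difference in Lyz2Cre libraries thus turned with the scaling, while that of Hp was negative under each.

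**Figure D4:**
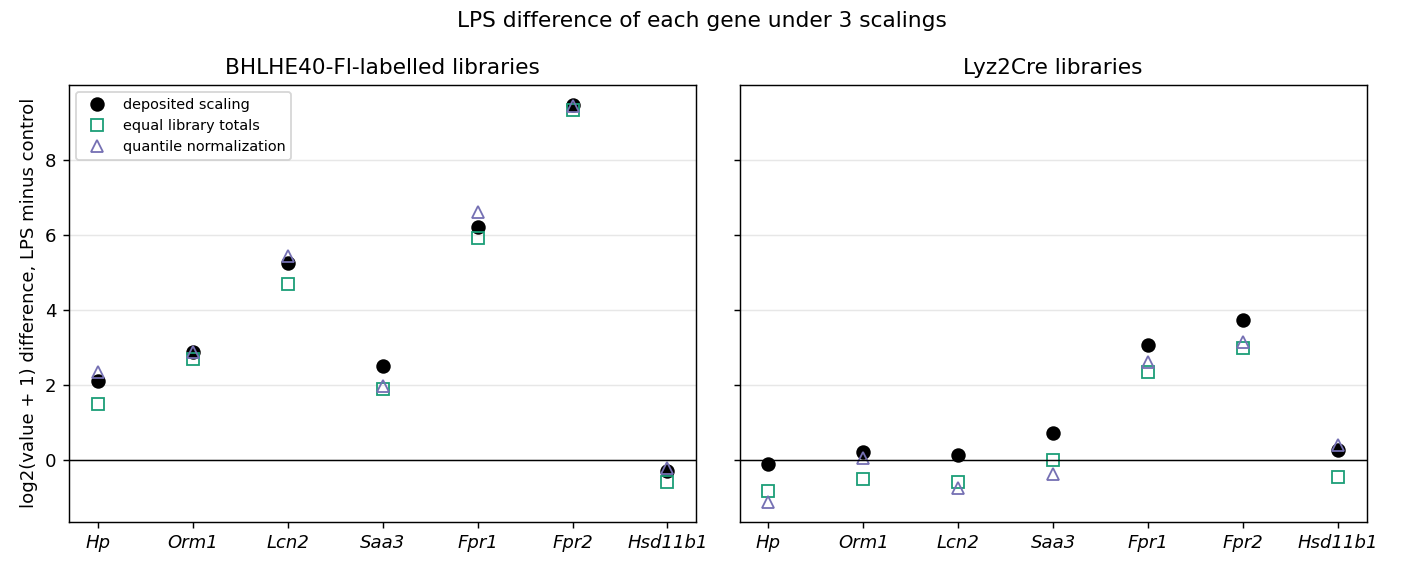
Log2(value + 1) difference, LPS minus control, of each gene in BHLHE40-Fl-labelled libraries (left) and Lyz2Cre libraries (right), under the deposited scaling, equal library totals and quantile normalization. In BHLHE40-Fl-labelled libraries all genes except Hsd11b1 lie above 0 under each scaling (1.504 for Hp with equal totals to 9.47 for Fpr2 as deposited), while in Lyz2Cre libraries Fpr1 and Fpr2 lie above 0 under all 3 scalings (2.34 for Fpr1 with equal totals to 3.73 for Fpr2 as deposited).

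Over the 12 libraries the genes had related profiles, as their choice implies. Pearson's r between log2 values of 2 of them ran from 0.665 (Fpr2 and Hsd11b1) to 0.997 (Hp and Orm1), and was 0.969 for Fpr1 and Fpr2. The points share the 4 groups, so these are descriptions. Among tested genes with a mean of at least 50, the profile most like the mean of the 7 was that of Adgre1 (r = 0.997), ahead of Ly6i (0.996), Slamf6, Cd33, Luzp1, Smpdl3b, Klra2, Msantd3, Sgms2 and Ly6c2 (0.991). Ly6i averaged 22 in BHLHE40-Fl-labelled libraries with LPS, 0 in their controls, 1752 in Lyz2Cre with LPS and 1412 in Lyz2Cre controls.

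The nearest genes differed by member. They were Mmp9, Spp1 and Bst1 for Hp, and Spp1, Mmp9 and Ms4a7 for Orm1. Mmp9, which encodes a matrix metalloprotease that lipocalin 2 can bind, averaged 264 in BHLHE40-Fl-labelled libraries with LPS, 116 in their controls, 2311 in Lyz2Cre with LPS and 2066 in Lyz2Cre controls. For Lcn2 they were Smpdl3b, Ly6i and Lpin2, and for Saa3 Adgre1, Ly6i and Slamf6. Those of Fpr1 were Abcc1, H2-Ab1 and Thbs1, and those of Fpr2 were Cxcl3, Pilra and Cd38. Cxcl3, a neutrophil chemoattractant, averaged 425 in BHLHE40-Fl-labelled libraries with LPS, 1.23 in their controls, 5618 in Lyz2Cre with LPS and 530 in Lyz2Cre controls (r = 0.999 with Fpr2). For Hsd11b1 they were Pbxip1, Tmeff1 and C1qa.

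The close relatives of the genes were scarce. Orm2, a second orosomucoid, had no read in the BHLHE40-Fl-labelled libraries with LPS, against 44.5, 49.7 and 43.5 in Lyz2Cre libraries with LPS, at least 34.8-fold lower (limma adjusted p = 1.11e-08). It likewise had none in the BHLHE40-Fl-labelled controls, against 20.8, 16.2 and 29.3 in Lyz2Cre controls, at least 29.6-fold lower (limma adjusted p = 1.49e-07). Part of the Orm1 sequence is shared with Orm2 or Orm3, and reads from those stretches could have come from either gene. Saa1, a serum amyloid of the liver, had no read in BHLHE40-Fl-labelled libraries with LPS against 6.9, 4.1 and 4.7 in Lyz2Cre libraries with LPS (limma adjusted p = 0.000183). Saa2 reached 3.3 and Orm3 1.4 at most, Fpr3 had 1.4 in a single library, Fpr-rs4 0.7 in another, and Saa4, Fpr-rs3, Fpr-rs6 and Fpr-rs7 were at 0 in all 12.

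The wider acute-phase list did not move as the 4 secreted genes did. With LPS, 7 of its 18 tested genes were higher and 6 were lower under the BHLHE40-Fl label, with a median log2 difference of 0.00 against -0.02 over all genes. In controls 5 were higher and 7 lower, with a median of -0.42 against 0.00 over all genes, of which 15.0% were called higher and 16.6% lower. Steap4, a metalloreductase, was higher at 882 ± 79.2 against 15 ± 4.71 in Lyz2Cre libraries with LPS (SD, n = 3, limma adjusted p = 1.47e-10). Serpina3n, a protease inhibitor of the acute phase, was higher at 341 ± 73.0 against 10.9 ± 2.49 (SD, n = 3, limma adjusted p = 1.94e-09). A2m, alpha-2-macroglobulin, was at 19.9, 18.4 and 11.3 against 0 in all 3 Lyz2Cre libraries with LPS, at least 11.5-fold higher (limma adjusted p = 4.64e-06).

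Means of these further genes are given with their SD (n = 3 libraries), for BHLHE40-Fl-labelled against Lyz2Cre libraries with LPS. Beside the counts of each list, 17.7% of all tested genes were called higher and 19.8% lower with LPS. In controls these shares were 15.0% and 16.6%. The median log2 difference of all genes was -0.02 with LPS and 0.00 in controls. Among the other chemoattractant receptors, 2 were higher and 3 lower of 8 tested with LPS (median log2 difference -0.25), and 2 and 4 in controls (median -0.16). Cmklr1, the chemerin receptor, was lower at 780 ± 73.3 against 3137 ± 158 in Lyz2Cre libraries with LPS (limma adjusted p = 2.88e-12). C3ar1, the receptor of complement C3a, was lower at 14948 ± 493 against 45589 ± 4269 (limma adjusted p = 5.04e-10). The leukotriene B4 receptor gene Ltb4r1 was lower at 1.67 ± 1.76 against 21.5 ± 10.9 (limma adjusted p = 0.000603). C5ar2, a second C5a receptor, was higher at 66.0 ± 10.1 against 9.47 ± 3.16 (limma adjusted p = 1.34e-07).

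Of 6 genes for ligands of these receptors, 1 was higher and 3 were lower with LPS (median log2 difference -0.43), and 2 and 4 in controls (median -0.93). With equal library totals 3 were higher and 2 lower with LPS. Camp, whose cathelicidin peptide is a ligand of Fpr2, was lower at 8.67 ± 2.31 against 134 ± 34.6 in Lyz2Cre libraries with LPS (limma adjusted p = 3.02e-05). App was lower at 16888 ± 732 against 29672 ± 828 (limma adjusted p = 5.95e-08). Anxa2 was higher at 24278 ± 400 against 18395 ± 638 (limma adjusted p = 4.29e-05). In controls Anxa2 was instead lower, at 15238 ± 89.1 in BHLHE40-Fl-labelled against 22039 ± 387 in Lyz2Cre libraries (limma adjusted p = 1.66e-06).

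Of 16 signalling genes downstream of the receptors, 4 were higher and 9 lower with LPS (median log2 difference -0.31), and 2 and 8 in controls (median -0.31). With equal library totals the split with LPS was 6 higher and 6 lower. Pik3cg, the catalytic subunit of PI3-kinase gamma, was lower at 1517 ± 86.2 against 8552 ± 108 in Lyz2Cre libraries with LPS (limma adjusted p = 6.42e-15), while Pik3r5, its regulatory subunit, was higher at 15852 ± 1098 against 9650 ± 253 (limma adjusted p = 1.1e-07). Arrb2, beta-arrestin 2, was lower at 730 ± 11.2 against 1663 ± 73.7 (limma adjusted p = 4.06e-10).

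Of 11 tested partners of the secreted proteins, 1 was higher and 7 were lower with LPS (median log2 difference -0.79), and 2 and 8 in controls (median -0.63). With equal library totals 3 were higher and 6 lower with LPS. Cd163, the haptoglobin-haemoglobin receptor of macrophages, had 2.3, 0.0 and 0.0 against 11.1, 8.3 and 14.0 in Lyz2Cre libraries with LPS (limma adjusted p = 0.000193). Hmox1, which breaks down the haem delivered by that route, was lower at 1783 ± 324 against 19247 ± 2110 (limma adjusted p = 1.16e-13). Mmp9 was lower at 264 ± 16.8 against 2311 ± 198 (limma adjusted p = 1.59e-14). Lrp2, a receptor that takes up lipocalin 2, was higher at 214 ± 39.2 against 5.77 ± 2.77 (limma adjusted p = 3.97e-09), a gene best known from epithelial cells.

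Of 13 genes of glucocorticoid activation and response, 5 were higher and 5 lower with LPS (median log2 difference -0.15), and 2 and 5 in controls (median -0.20). Sgk1, a kinase gene induced by glucocorticoids, was lower at 18134 ± 2017 against 63602 ± 525 in Lyz2Cre libraries with LPS (limma adjusted p = 4.66e-11). Nr3c2, the mineralocorticoid receptor gene, was higher at 22.1 ± 5.36 against 8.77 ± 5.21 (limma adjusted p = 0.0128), a call not kept without Lyz2Cre LPS replicate 2 (limma adjusted p = 0.0667). The scavenger receptor gene Stab1 was lower at 378 ± 37.6 against 2289 ± 20.8 (limma adjusted p = 1.57e-12).

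The inducers of the acute phase were mixed, with 6 higher and 5 lower of 14 cytokine and receptor genes with LPS (median log2 difference 0.19), and 4 and 8 in controls (median -0.53). With equal library totals the split with LPS was 9 higher and 4 lower. Il6 was lower at 27787 ± 2898 against 71584 ± 3823 in Lyz2Cre libraries with LPS (limma adjusted p = 0.00019). Il1b was higher at 84193 ± 5549 against 28850 ± 2407 (limma adjusted p = 0.00634), a call not kept with robust variances (limma adjusted p = 0.0709). The receptor genes Il1r1, at 473 ± 37.0 against 43.3 ± 7.02 (limma adjusted p = 2.81e-12), and Osmr, at 712 ± 144 against 187 ± 32.5 (limma adjusted p = 5.04e-07), were higher. In controls Il1b was instead lower, at 2.43 ± 2.92 in BHLHE40-Fl-labelled against 281 ± 187 in Lyz2Cre libraries (limma adjusted p = 8.29e-10).

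Of 15 transcription factor genes of the acute phase, 3 were higher and 4 lower with LPS (median log2 difference 0.01), and 1 and 9 in controls (median -0.35), a balance that became 10 higher and 2 lower with LPS under equal library totals. Cebpa, a C/EBP factor gene, was lower at 286 ± 37.4 against 619 ± 83.9 in Lyz2Cre libraries with LPS (limma adjusted p = 1.3e-07). Stat3, which relays IL-6 signals, was lower at 14164 ± 416 against 26194 ± 613 (limma adjusted p = 2.82e-09). Cebpb was lower at 6492 ± 906 against 9459 ± 578 (limma adjusted p = 0.000387). That call was not kept with equal library totals (limma adjusted p = 0.0523) or after quantile normalization (limma adjusted p = 0.103). Bcl3, an NF-kB cofactor, was higher at 735 ± 173 against 362 ± 23.4 (limma adjusted p = 5.72e-05). In controls Bcl3 was instead lower, at 162 ± 18.0 in BHLHE40-Fl-labelled against 352 ± 48.7 in Lyz2Cre libraries (limma adjusted p = 1.81e-05).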

How the data were processed

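Total RNA from peritoneal macrophages was purified by kit and sequenced on standard Illumina libraries, per the labels. The submitters' processing notes name mm10, STAR, Cufflinks and Cuffdiff, with no role or order; a read counter, a strand setting and an annotation are named in no source used here. The deposited table holds a signal. From its values it is whole reads, scaled by a factor of each library, whole within a tolerance of 0.06 for 99.96% to 100% of values. That scaling is recorded in no source used here. Of 53465 identifiers, 53360 are in GENCODE M21.

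The 20419 genes that reached 1 in 3 or more libraries entered a limma 3.58.1 trend model on log2(value + 1) over all 12 libraries with 1 mean per group. Adjusted p-values are Benjamini-Hochberg over all tested genes and were called below 0.05. On this scale low genes change less than their ratio. A fold is a ratio of group means, and against a group at 0 they use a floor of 3 reads over the group. With 1 to 3 reads they carry an exact Poisson 95% interval for the reads of the low group, which treats the other group as known. Neighbouring libraries of a group differed by more than sampling noise (chi-square per degree of freedom 7.35 to 72.2). edgeR 4.0.16 and DESeq2 1.42.0 on the recovered reads were alternatives.

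The genes and lists were chosen with earlier results of these data known. Named list genes are among up to 4 per list with the largest difference with LPS, called ones first, and likeness used genes with a mean of at least 50. Not every eligible gene is named.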

Additional observations from a re-analysis of the deposited data

Results flagged for a closer look

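The difference in Bhlhe40 RNA between genotype labels was not the same with and without LPS. The log2 difference with LPS minus that in controls was -0.81 ± 0.12 (SE, limma adjusted p = 8.45e-05, n = 3 libraries per group), with all 3 BHLHE40-Fl-labelled controls (7617.0 to 8045.7) above all Lyz2Cre controls (4737.1 to 5306.2) and overlapping groups with LPS.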

How the results depend on the processing

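With LPS, all 7 genes remained called lower under the BHLHE40-Fl label in each of 18 alternatives, 12 settings of scaling, filter, pseudocount, test, block and variance model and 6 left-out libraries. The largest adjusted p among those with limma was 3.51e-05, for Lcn2 with robust variances. Their log2 differences kept their sign, from -4.90 to -4.28 for Lcn2 and from -9.09 to -5.80 for Hsd11b1. Several differences changed sign. The LPS difference in Lyz2Cre libraries was -0.51 for Orm1, -0.60 for Lcn2 and -0.45 for Hsd11b1 with equal library totals, and -0.76 for Lcn2 and -0.38 for Saa3 after quantile normalization. That of Hsd11b1 in BHLHE40-Fl-labelled libraries ranged from -0.85 to 0.13 with a library left out. The genotype difference of Bhlhe40 with LPS was 0.14 with equal library totals (limma adjusted p = 0.213) and 0.004 after quantile normalization (limma adjusted p = 0.996). The cause was not tested. The number of genes called changed by less than 1.5 times in every comparison, and with a library left out it ranged from 6638 to 7536 between labels with LPS, from 5506 to 5912 between them in controls, from 9366 to 9836 for LPS in BHLHE40-Fl-labelled libraries and from 9287 to 9437 for LPS in Lyz2Cre libraries. The split of calls between labels in controls was 5111 higher and 2524 lower with equal totals, against 3060 and 3385 as deposited.

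Libraries with the same replicate number did not vary together (r from -0.066 to 0.028 over 18 pairs, and from -0.055 to 0.086 for other pairs), and 2 of 12 correlated best with their own number. With the replicate number as a block 7367 genes were called between labels with LPS, against 7643 without it, and all 7 genes among them. Levels near 0 reads in the BHLHE40-Fl-labelled libraries limit the size of the differences of Orm1, Fpr1, Fpr2 and Hsd11b1.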
